A study of Rattus norvegicus with 18 samples.

Results

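The genes described here encode enzymes and regulators of cholesterol and fatty acid synthesis. They were taken by symbol from a list of 33 genes that act on, or in routes controlled by, sterol regulatory element-binding proteins (SREBPs). Of these, 28 were named in the deposited signal table and 27 passed a filter on low signals, out of 13136 gene symbols in the table and 9852 genes tested. For a gene with several probe sets, the probe set with the highest mean was used. The genes fell into 4 roles: 7 of 8 listed genes of the mevalonate steps were tested, 9 of 11 of the steps from squalene to cholesterol, 5 of 6 regulators and sterol carriers, and 6 of 8 of fatty acid synthesis. Mvk, Srebf1, Fasn, Sc4mol and Sc5dl were not analysed here under these symbols, and Scd1, a stearoyl-CoA desaturase, lay below the filter at log2 signals of 4.54 to 5.18. Sc4mol and Sc5dl are older names of Msmo1 and Sc5d in the RefSeq gene table, and those were read with the wider pathway list below.

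SREBPs are transcription factors held in the membrane of the endoplasmic reticulum. When membrane sterol falls, the escort protein Scap carries them to the Golgi, where proteases release the active factor. When sterol is plentiful, Insig proteins retain Scap, and transcription of the synthesis genes drops. Vitamin D is made from an intermediate of the cholesterol route, and in beta cells glucose carbon that leaves mitochondria as citrate is a substrate for both cholesterol and fatty acid synthesis.

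The cells were INS1E, a beta-cell line derived from a rat insulinoma, grown at 11 mM glucose. For 72 h they were kept in RPMI medium containing calcitriol (1,25(OH)2vitamin D, the hormonal form) at 10 nM, calcidiol (25(OH)vitamin D, the circulating form, which lacks the hydroxyl group at carbon 1) at 10 nM, or neither. All groups then spent 60 min in a glucose-free buffer, after which 1 of the 2 groups with the same pretreatment was stimulated for 60 min with 22 mM glucose. This gave 6 groups of 3 samples: control, glucose, calcitriol, calcitriol with glucose, calcidiol, and calcidiol with glucose. From each sample 150 ng of total RNA was hybridised to 1 Affymetrix rat gene array, and the array number limits the precision. INS1E is a single line, the unstimulated groups had been without glucose, and no label states separate cultures for the 3 samples of a group. The p-values thus describe the scatter of these samples alone, part or all of which may be technical.

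Beta-cell markers other than Nkx6-1 were high on all 18 arrays, with Ins1 at log2 signals of 12.78 to 12.98 and Mafa at 10.70 to 11.15. Nkx6-1 lay at 7.92 to 8.45, while Sst, Ppy, Cela1, Col1a1 and Vim stayed at or below 6.42. Gcg, the glucagon gene of alpha cells, was also bright, at 11.32 to 12.16 on 16 arrays, and lower on the arrays labelled calcidiol 3 (10.27) and calcidiol with glucose 3 (10.20). Of the 6 arrays numbered 3, 4 went against their glucose labels in Txnip or Nr4a1. Txnip, whose transcription follows glucose, was 12.18 to 12.33 on the glucose-stimulated arrays numbered 1 and 2 and 10.39 to 10.53 on the unstimulated ones. It was 10.33 on the array labelled glucose 3, 10.23 on that labelled calcidiol with glucose 3, and 12.11 on that labelled calcitriol 3. Nr4a1, an immediate early gene, was 9.33 on the array labelled calcitriol 3 and 8.95 on that labelled calcidiol 3, against 6.38 to 6.85 on the other calcitriol and calcidiol arrays. Both genes went against the label only on calcitriol 3: Nr4a1 was 9.84 on glucose 3 and 8.67 on calcidiol with glucose 3, above the unstimulated arrays numbered 1 and 2, and Txnip was 10.44 on calcidiol 3. On control 3 and calcitriol with glucose 3 both genes followed the labels. Labels were kept, and results are given for all 18 arrays. Those of the 12 arrays numbered 1 and 2 were added if a call or value changed. As the arrays numbered 3 stood out in genes that follow glucose, glucose tests without them are favoured in advance. The glucose p-values on the 12 arrays are therefore descriptive and not independent evidence.

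Promoter sequence was examined because SREBPs bind DNA together with partner factors, NF-Y at CCAAT boxes and Sp1 at GC boxes. RefSeq promoter windows (rat assembly GRCr8, 250 bases before to 50 after the gene start) matched 21 of the 28 genes in the table. A CCAAT box on either strand was present in 16 of the 21 windows (76.2%), against 37.7% of 27457 windows of all genes. The GC box GGGCGG was present in 17 (81.0%), against 34.9%. The letters CACCCCAC, the core of the classical sterol regulatory element, were in 1 window, that of Ebp, against 2.57% of all. The E-box CACGTG was in 2 windows, those of Insig1 and Scap, against 6.65% of all. These are letter matches in a fixed window and not measured binding sites. The background windows were not limited to genes expressed in these cells, and the share among expressed genes was not computed. Pmvk, which the glucose comparison below turns on, was not among the 21. The windows printed are those of Mvd, which was called after glucose on the 12 arrays but not on all 18, of Hmgcs1, the entry to the mevalonate route, and of Insig1, the sterol-sensing regulator. They are printed 5′ to 3′ along each gene's strand, and capitals mark matches of these motifs on either strand. Mvd (chr19:67414925-67415224, minus strand) holds 2 CCAAT boxes and 2 GC boxes, Hmgcs1 (chr2:53382054-53382353, plus strand) 2 and 4, and Insig1 (chr4:8057720-8058019, minus strand) 1 of each and an E-box.
Mvd: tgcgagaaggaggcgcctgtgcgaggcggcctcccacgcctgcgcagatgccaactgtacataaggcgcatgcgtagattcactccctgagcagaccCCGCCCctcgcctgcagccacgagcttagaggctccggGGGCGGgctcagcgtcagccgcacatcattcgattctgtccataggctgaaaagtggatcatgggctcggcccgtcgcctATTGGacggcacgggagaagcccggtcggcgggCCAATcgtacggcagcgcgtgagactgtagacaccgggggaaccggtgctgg
Hmgcs1: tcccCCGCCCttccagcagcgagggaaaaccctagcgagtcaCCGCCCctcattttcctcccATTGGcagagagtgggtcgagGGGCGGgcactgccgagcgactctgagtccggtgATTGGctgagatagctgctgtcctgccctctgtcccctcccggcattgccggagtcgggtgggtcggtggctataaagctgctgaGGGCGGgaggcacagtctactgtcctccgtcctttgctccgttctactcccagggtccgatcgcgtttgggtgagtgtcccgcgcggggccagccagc
Insig1: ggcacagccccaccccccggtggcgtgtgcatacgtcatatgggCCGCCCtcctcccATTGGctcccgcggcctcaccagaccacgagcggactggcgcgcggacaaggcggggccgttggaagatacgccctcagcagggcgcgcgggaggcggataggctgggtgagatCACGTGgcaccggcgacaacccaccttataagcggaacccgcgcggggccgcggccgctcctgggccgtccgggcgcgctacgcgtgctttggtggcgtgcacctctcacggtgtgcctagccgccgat

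Before any comparison, the genes differed little between arrays. The steadiest was Acly, which encodes the enzyme that turns cytosolic citrate into acetyl-CoA, at log2 signals of 11.90 to 12.07. Scap spanned 8.52 to 8.71 and Lss, lanosterol synthase, 9.49 to 9.71. The widest was Tm7sf2, a sterol reductase, at 7.53 to 8.39, followed by Idi1, the isomerase of isopentenyl diphosphate, at 7.47 to 8.25, Pmvk at 6.40 to 7.17 and Hmgcs1 at 9.16 to 9.92. Spread within groups was wider in 3 of the 6 groups: the median SD over the 27 genes was 0.137 in calcidiol, 0.129 in calcitriol with glucose and 0.128 in calcidiol with glucose, against 0.0854 in calcitriol, 0.0776 in glucose and 0.0681 in control. Over all 9852 genes the same medians were 0.113, 0.11 and 0.122, against 0.0776, 0.0748 and 0.0725.

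**Figure D1:**
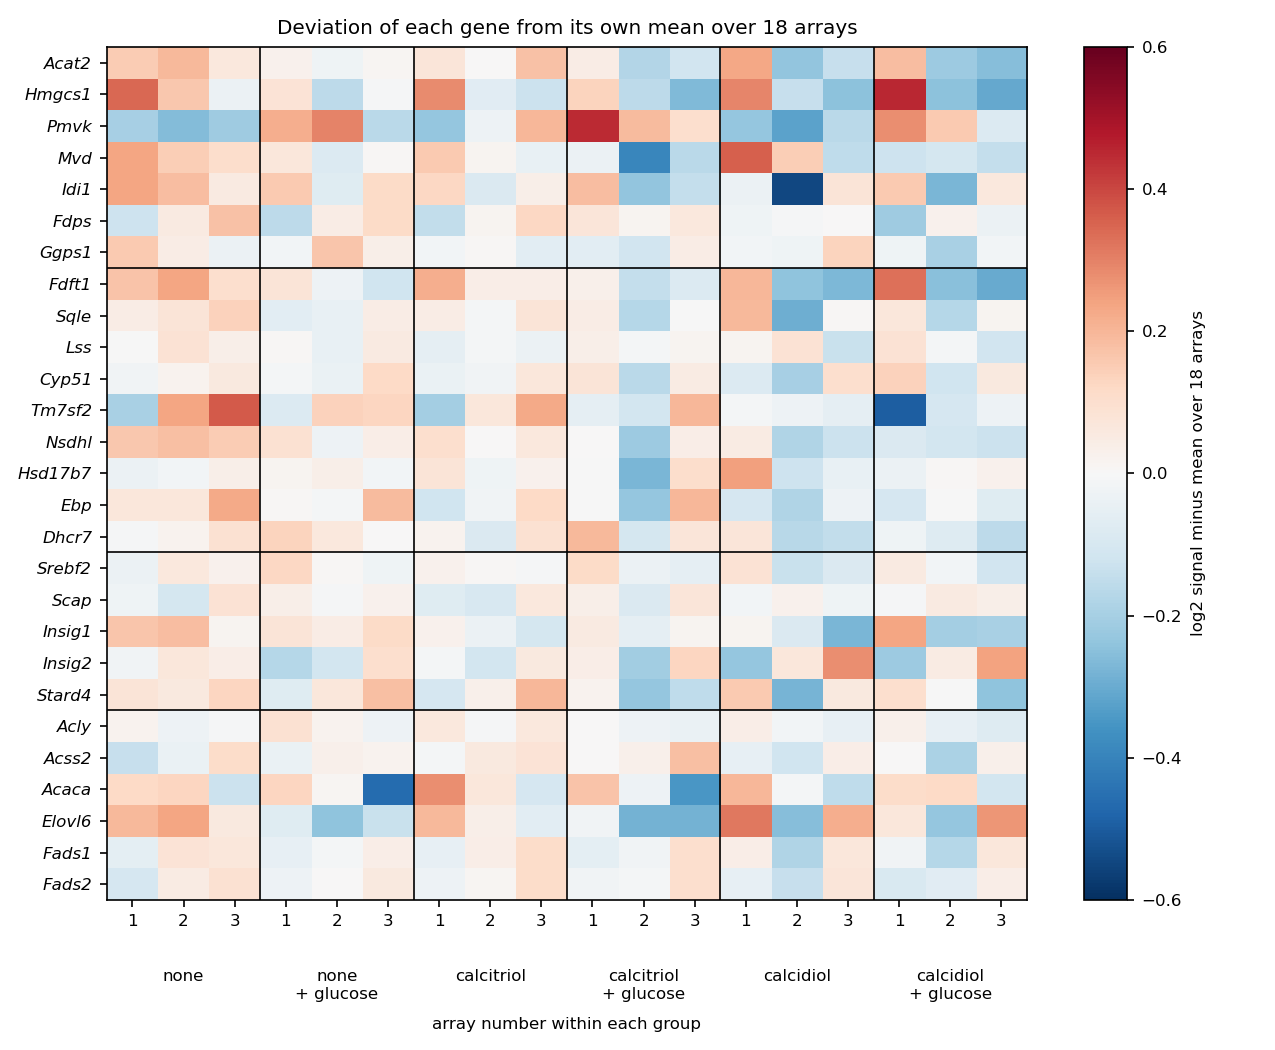
Deviation of each of the 27 tested genes from its own mean over 18 arrays (colour, log2 units), with genes in rows by role and arrays in columns by group and number. Pmvk is the gene whose glucose-stimulated arrays are mostly red, and the array labelled calcidiol 2 is blue for 23 of 27 genes.

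The array labelled calcidiol 2 had the lowest of 18 values for 9 of the 27 genes and a median deviation from the genes' own means of -0.138, against -0.026 over all genes. The array labelled calcidiol with glucose 1 had the highest of its group for 14 of the 27 genes (51.9%), against 24.9% of all genes. On the array labelled calcitriol with glucose 2, 24 of 27 genes lay below their own mean, and so did 73.8% of all genes. Single arrays therefore carried much of the visible pattern, and the groups are compared with that spread below.

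The first comparison asked which of the genes differed after 60 min of 22 mM glucose, averaged over the 3 pretreatments. Pmvk rose, and none of the other 26 genes passed the test on all 18 arrays. Pmvk encodes phosphomevalonate kinase, which adds the second phosphate on the way from mevalonate to isoprenoids. Mvd, which encodes the decarboxylase of the next step, had the next smallest p and lower values after glucose. The 1 of 27 genes called (3.70%) compares with 332 of 9852 genes called (3.37%), so the share of the set was near the background. Those 332 genes split into 138 higher and 194 lower, which became 183 and 129 after quantile normalisation and 196 and 109 after median centring.

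Pmvk had log2 signals of 6.52, 6.46 and 6.51 in control and 6.94, 7.02 and 6.56 in glucose. In calcidiol it was 6.49, 6.40 and 6.56, and in calcidiol with glucose 7.0, 6.88 and 6.64. In calcitriol it was 6.49, 6.69 and 6.92, and in calcitriol with glucose 7.17, 6.91 and 6.82. Groups did not overlap without vitamin D or after calcidiol, and overlapped after calcitriol, where the array labelled calcitriol 3 was the highest unstimulated one. Here and below, a lack of overlap between 3 and 3 arrays is descriptive only, as its share over all genes was not computed. In glucose and in calcidiol with glucose the arrays numbered 3 were the lowest, as they were for Txnip. The averaged difference was 0.32 on the log2 scale (SE 0.07, 95% interval 0.16 to 0.48, adjusted p = 0.0361 by limma), a fold of 1.25 (95% interval 1.12 to 1.40). On the 12 arrays numbered 1 and 2 it was 0.48 (SE 0.06, adjusted p = 0.000667 by limma), a fold of 1.39. Leaving out 1 array at a time gave 0.29 to 0.37, with an adjusted p of 0.00935 to 0.0897 by limma, and Pmvk passed in 5 of these 18 fits, each without an array numbered 3. Pmvk also lies close to the filter on low signals, which was set at 6.38, and a stricter filter left it untested.

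Mvd had log2 signals of 7.90, 7.81 and 7.77 in control and 7.73, 7.58 and 7.67 in glucose. In calcitriol it was 7.82, 7.68 and 7.62, and in calcitriol with glucose 7.63, 7.27 and 7.50. In calcidiol it was 8.02, 7.81 and 7.51, and in calcidiol with glucose 7.54, 7.56 and 7.52. The groups did not overlap without vitamin D, and after either form they did, through the arrays numbered 3 after calcidiol. The averaged difference was -0.21 (SE 0.06, 95% interval -0.35 to -0.08, adjusted p = 0.0690 by limma), a fold of 0.86, and did not pass. On the 12 arrays numbered 1 and 2 it was -0.29 (SE 0.07, adjusted p = 0.0270 by limma), a fold of 0.82, so that 2 of 27 genes were called there (7.41%), against 979 genes in all (9.94%). With the replicate number as a block on 18 arrays, Mvd passed as well (adjusted p = 0.0210 by limma) beside Pmvk (adjusted p = 0.0197), 2 of 27, against 941 genes (9.55%).

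**Figure D2:**
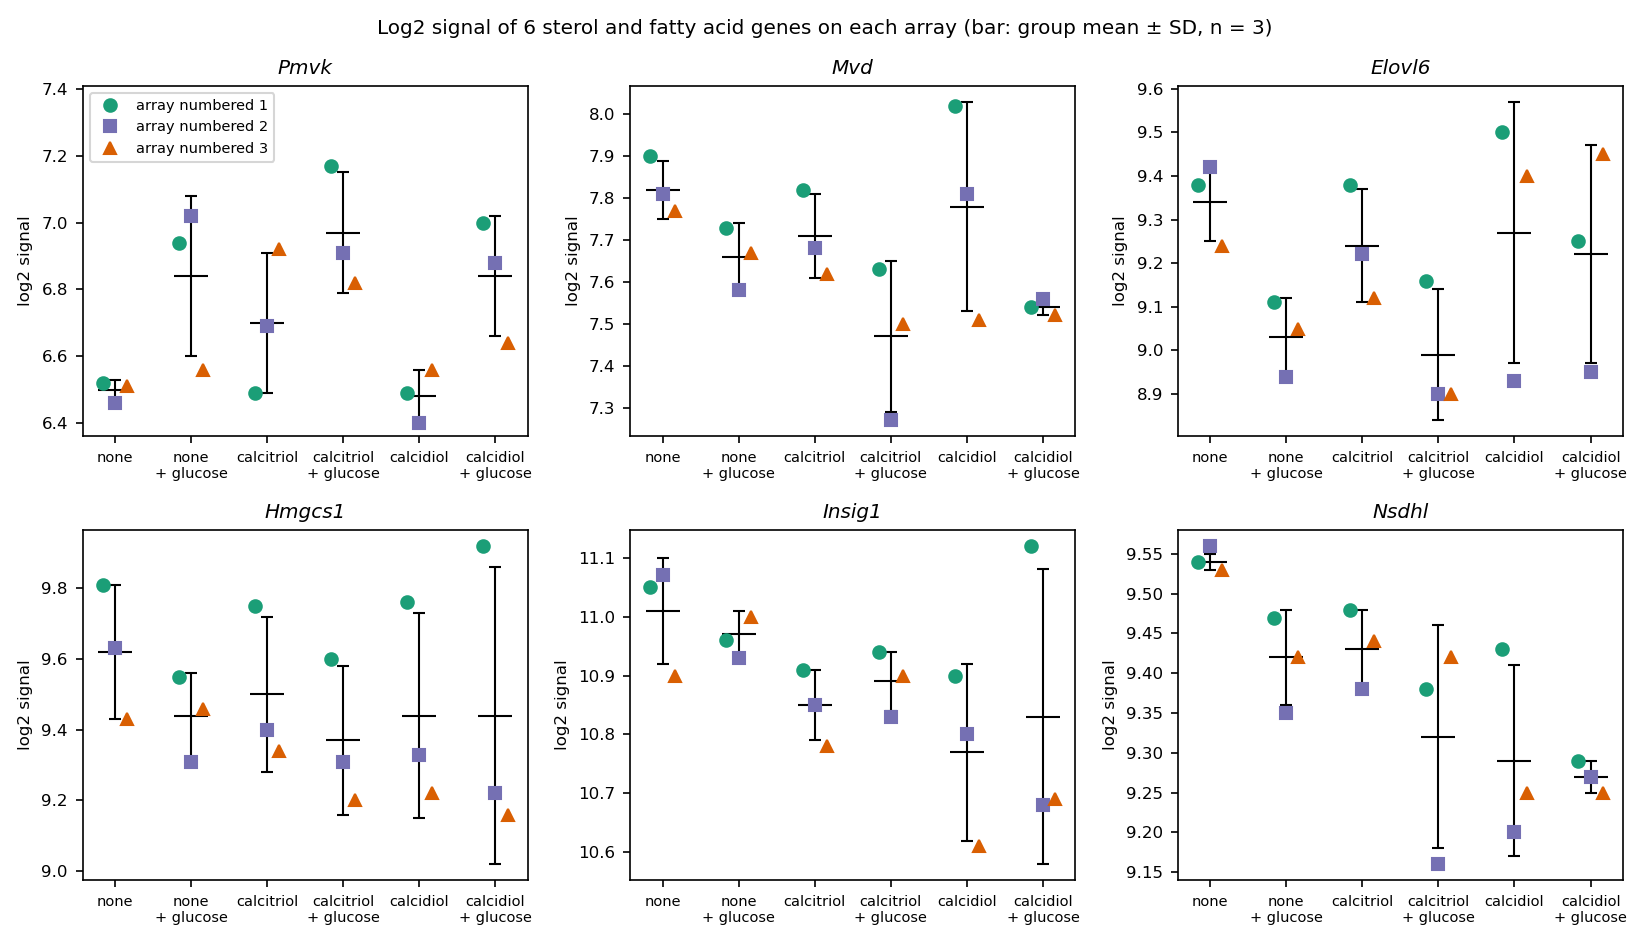
Log2 signal (vertical axis) of 6 genes on each array, by group (horizontal axis); symbols give the array number, and bars the group mean and SD of 3 arrays. In Pmvk the glucose-stimulated arrays numbered 1 and 2 lie at 6.88 to 7.17, above every unstimulated array numbered 1 or 2 (6.40 to 6.69).

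Among the other mevalonate genes, Hmgcs1, which encodes the synthase that makes HMG-CoA, had 9.62 ± 0.19 in control and 9.44 ± 0.12 in glucose (SD, n = 3), and the averaged glucose difference was -0.10 (SE 0.11, 95% interval -0.34 to 0.13, adjusted p = 0.666 by limma). The arrays numbered 1 were the highest of their group for Hmgcs1 in all 6 groups, from 9.55 to 9.92, and this spread is as wide as any difference between groups. Acat2 (acetoacetyl-CoA thiolase), Idi1, Fdps and Ggps1 (the synthases of farnesyl and geranylgeranyl diphosphate) differed by -0.12 to -0.01, with every interval spanning 0.

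In the steps from squalene to cholesterol, 0 of 9 genes passed on 18 arrays by limma, and 1 had an unadjusted p under 0.05. Nsdhl, which encodes a dehydrogenase that helps to strip methyl groups from lanosterol, differed by -0.09 (SE 0.04, adjusted p = 0.260 by limma). Fdft1, squalene synthase, was 10.23, 10.30 and 10.16 in control and 10.14, 10.03 and 9.94 in glucose. It was 10.28, 10.10 and 10.10 in calcitriol and 10.09, 9.92 and 9.98 in calcitriol with glucose, again without overlap. After calcidiol it overlapped widely, from 9.79 to 10.26 without glucose and from 9.76 to 10.39 with it. The averaged difference of Fdft1 was -0.11 (SE 0.08, adjusted p = 0.523 by limma). The 7 others (Sqle, Lss, Cyp51, Tm7sf2, Hsd17b7, Ebp and Dhcr7) differed by -0.09 to 0.03.

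Of the 5 regulators and carriers, 0 passed by limma and 0 had an unadjusted p under 0.05. Insig1, itself an SREBP target that retains Scap, differed by 0.02 (SE 0.06, adjusted p = 0.889 by limma). Its group means were 11.01 ± 0.09 in control and 10.97 ± 0.04 in glucose (SD, n = 3). Scap differed by 0.04 (SE 0.04, adjusted p = 0.621) and Stard4, a cytosolic sterol carrier, by -0.07 (SE 0.07, adjusted p = 0.602). Srebf2, the SREBP gene that acts mainly on cholesterol synthesis, differed by 0.01 with a 95% interval of -0.07 to 0.10, and Insig2 by -0.03 with an interval of -0.19 to 0.13.

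In fatty acid synthesis, Elovl6, the elongase that extends palmitate, was 9.38, 9.42 and 9.24 in control and 9.11, 8.94 and 9.05 in glucose. It was 9.38, 9.22 and 9.12 in calcitriol and 9.16, 8.90 and 8.90 in calcitriol with glucose. It was 9.50, 8.93 and 9.40 in calcidiol and 9.25, 8.95 and 9.45 in calcidiol with glucose. Every stimulated array was below every unstimulated one without vitamin D, and both calcidiol groups covered the same range. The averaged difference was -0.21 (SE 0.08, 95% interval -0.38 to -0.04, adjusted p = 0.169 by limma). Acaca, acetyl-CoA carboxylase, differed by -0.09 (SE 0.09, adjusted p = 0.638), with its lowest value of 7.84 on the array labelled glucose 3. Acly, Acss2 (acetyl-CoA synthetase), and the desaturases Fads1 and Fads2 differed by -0.02 to 0.01, with interval bounds between -0.12 and 0.11. Scd1 had 4.86 ± 0.14 in control and 4.73 ± 0.16 in glucose (SD, n = 3) and was not tested.

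**Figure D3:**
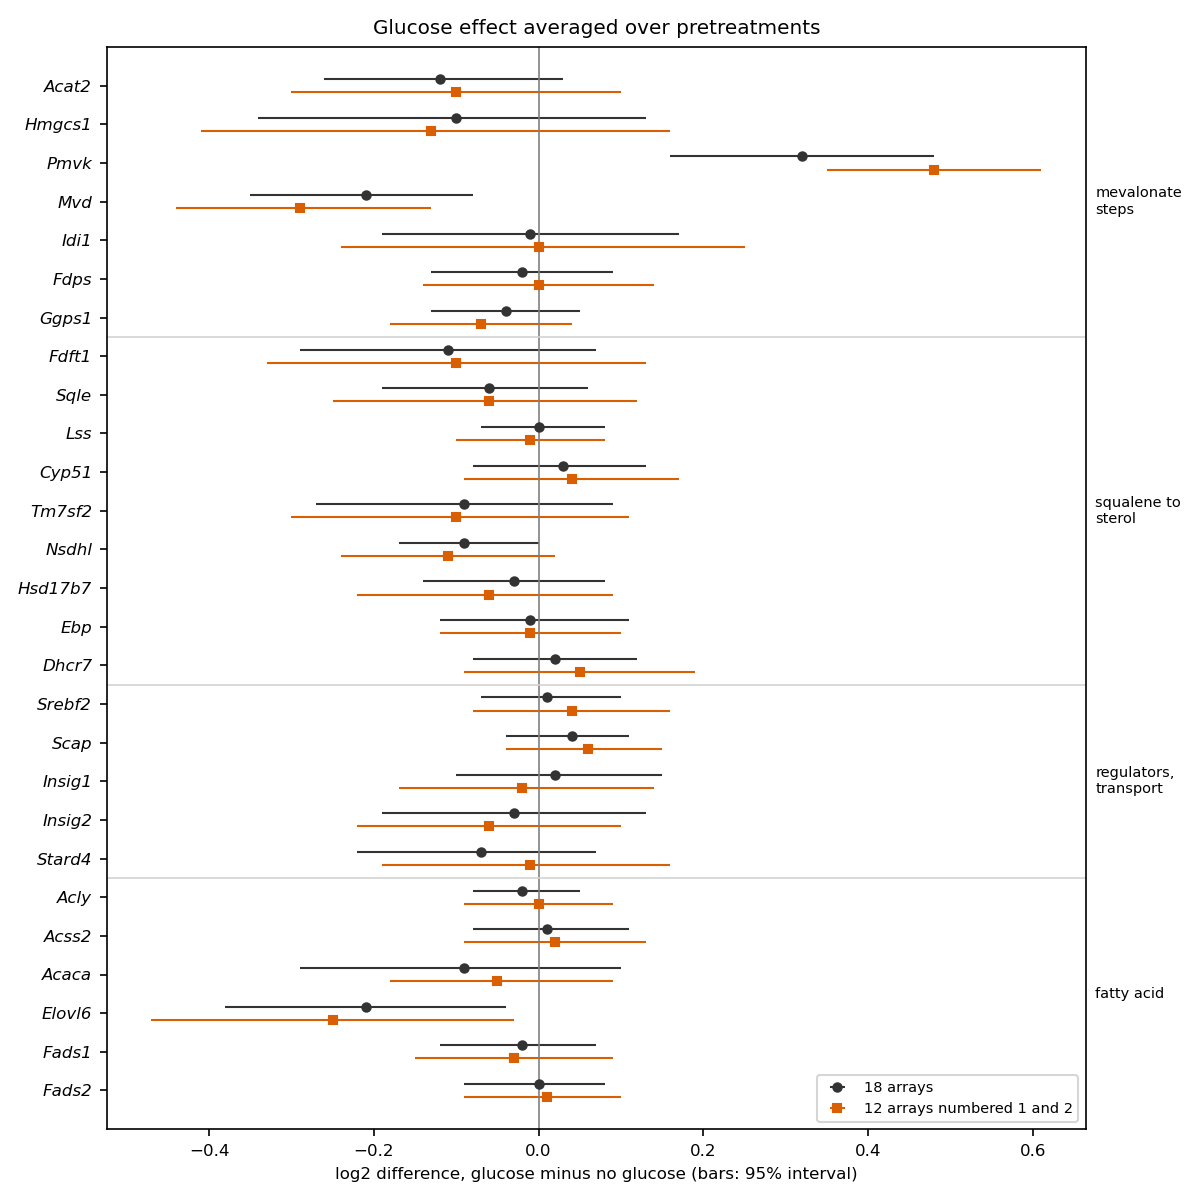
Glucose difference averaged over pretreatments (log2 units, horizontal axis) for the 27 genes, with 95% intervals, on 18 arrays (circles) and on the 12 arrays numbered 1 and 2 (squares). Intervals off 0 on both sets belong to Pmvk (0.32 and 0.48), Mvd (-0.21 and -0.29) and Elovl6 (-0.21 and -0.25).

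Over the 27 genes, the median glucose difference was -0.025, against -0.03 for all genes tested. An unadjusted p under 0.05 was found for 4 genes (14.8%), against 19% of all. Below 0 lay 19 of 27 (70.4%), against 67.0% of all, and this direction did not hold under other scaling: 13 of 27 lay below 0 after quantile normalisation and 11 after median centring. The counts of the set were thus near or below those of all genes.

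The glucose difference was next taken within each pretreatment. On 18 arrays 0 of 9852 genes passed by limma in any of the 3 comparisons (0%), and an unadjusted p under 0.05 was found for 599 genes without vitamin D (6.08%), 972 after calcitriol (9.87%) and 459 after calcidiol (4.66%). Of the 27 genes, 2 were among these without vitamin D (Pmvk and Elovl6), 1 after calcitriol (Mvd) and 2 after calcidiol (Pmvk and Mvd). Pmvk differed by 0.34, 0.27 and 0.36 in this order, Mvd by -0.17, -0.24 and -0.24, and Elovl6 by -0.31, -0.26 and -0.06. The smallest adjusted p among the 27 genes was 0.769, 0.493 and 0.962. On the 12 arrays numbered 1 and 2, Pmvk differed by 0.49, 0.45 and 0.50, with adjusted p-values of 0.0585, 0.0585 and 0.0488 by limma. There 1 of 27 genes passed after calcidiol (background 1.35%) and 0 without vitamin D (1.06%) or after calcitriol (1.89%). With the replicate block added on these 12 arrays, Pmvk passed in each of the 3 (adjusted p = 0.0370, 0.0341 and 0.0303 by limma), 1 of 27 genes (3.70%) against 1.78%, 4.54% and 2.45% of all genes.

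Whether a vitamin D form altered the glucose difference was tested by the interaction. No gene of 9852 passed by limma for calcitriol or calcidiol (0%), with 66 (0.67%) and 32 (0.325%) at an unadjusted p under 0.05, none of them among the 27. For Pmvk the interaction was -0.07 (95% interval -0.46 to 0.32) with calcitriol and 0.02 (-0.37 to 0.41) with calcidiol. For Elovl6 it was 0.05 (-0.37 to 0.47) and 0.25 (-0.17 to 0.67). Over the 27 genes the interval bounds ran from -0.52 to 0.63 for calcitriol and from -0.54 to 0.76 for calcidiol, with the widest for Hmgcs1. For each gene, an interaction within its own interval was not excluded.

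The next comparison asked whether calcidiol changed the genes, averaged over glucose states. No gene of 9852 passed by limma (0%), and 660 (6.70%) had an unadjusted p under 0.05, among them 4 of the 27 (14.8%). These 4 were Nsdhl, Insig1, Ebp and Dhcr7, all lower with calcidiol. Ebp encodes the isomerase that shifts the sterol double bond, and Dhcr7 the reductase of the last step, whose substrate is the precursor of vitamin D. Of the 27 genes 22 lay below 0 (81.5%), against 63.6% of all genes. The median was -0.062, against -0.024. After quantile normalisation and after median centring 21 of 27 lay below 0, against 53.8% and 48.5% of all genes. The count at an unadjusted p under 0.05 by limma stayed at 4 (14.8%, against 6.54% of all) after quantile normalisation. It fell to 2 (7.41%, against 6.2% of all) after median centring, near the background.

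Nsdhl had log2 signals of 9.54, 9.56 and 9.53 in control and 9.43, 9.20 and 9.25 in calcidiol. With glucose it was 9.47, 9.35 and 9.42 without vitamin D and 9.29, 9.27 and 9.25 after calcidiol. In both glucose states all 3 calcidiol arrays were below all 3 arrays without vitamin D. The averaged difference was -0.20 (SE 0.05, 95% interval -0.30 to -0.09, unadjusted p = 0.00129, adjusted p = 0.722 by limma), a fold of 0.87. On the 12 arrays it was -0.18 (SE 0.07, adjusted p = 0.866 by limma), and with the replicate block the adjusted p was 0.183.

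Insig1 was 11.05, 11.07 and 10.90 in control and 10.90, 10.80 and 10.61 in calcidiol. With glucose it was 10.96, 10.93 and 11.00 without vitamin D and 11.12, 10.68 and 10.69 after calcidiol. The array labelled calcidiol with glucose 1 was the highest of all 18, and the 2 others of its group were among the lowest. The averaged difference was -0.19 (SE 0.07, 95% interval -0.34 to -0.03, adjusted p = 0.722 by limma). A second probe set of Insig1 differed by -0.03, so the 2 probe sets disagree. Both probe sets of Acat2, by contrast, gave similar values (-0.14 and -0.17).

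Ebp differed by -0.17 (SE 0.07, adjusted p = 0.722) and Dhcr7 by -0.14 (SE 0.06, adjusted p = 0.733). Idi1 was 8.25, 8.20 and 8.07 in control and 7.98, 7.47 and 8.09 in calcidiol, with the array labelled calcidiol 2 the lowest of 18, and differed by -0.20 (SE 0.11, adjusted p = 0.753 by limma). Acat2 differed by -0.14 (SE 0.08), Fdft1 by -0.16 (SE 0.10) and Tm7sf2 by -0.22 (SE 0.10), and Stard4 by -0.11 (SE 0.08), none of which passed. Genes of fatty acid synthesis were nearer to 0, with Fads2 at -0.05 (SE 0.05), Acly at -0.03 (SE 0.04) and Elovl6 at 0.06 (SE 0.10). Without arrays numbered 3, and so without both calcidiol arrays with low Gcg, Insig1 differed by -0.13, Ebp by -0.13 and Dhcr7 by -0.10, and of the 4 genes only Nsdhl kept an unadjusted p under 0.05 (0.0266). The lower values were uneven over the arrays. The median deviation of the 27 genes was -0.138 and -0.098 on the arrays labelled calcidiol 2 and calcidiol with glucose 2. On those numbered 3 of the same groups it was -0.04 and -0.067, and on those numbered 1 it was 0.042 and 0.035.

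**Figure D4:**
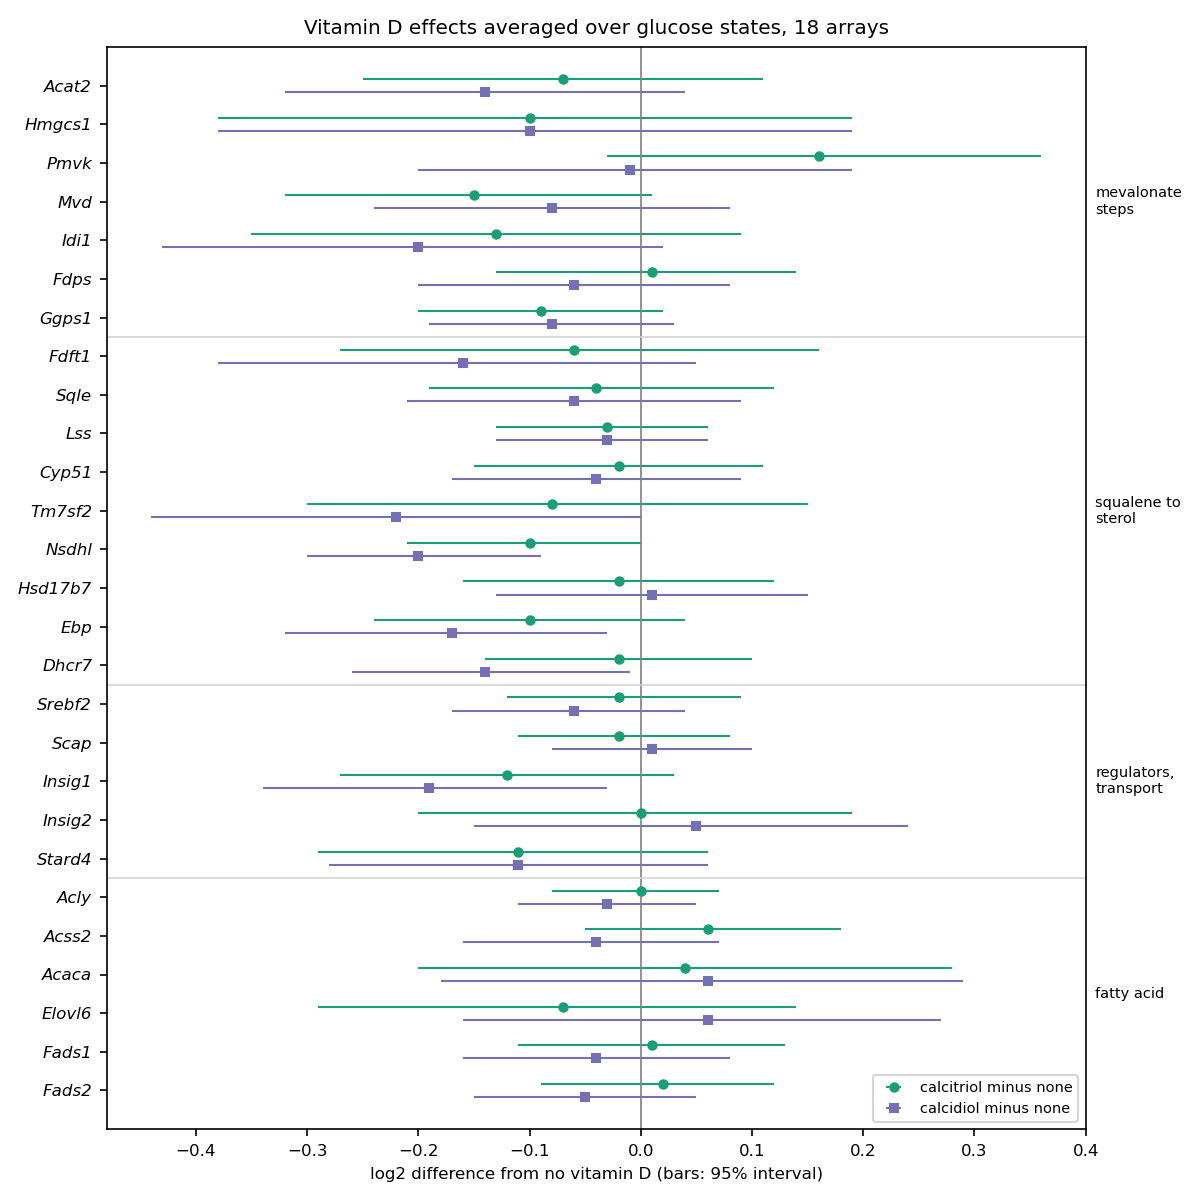
Difference of calcitriol (circles) and of calcidiol (squares) from no vitamin D, averaged over glucose states (log2 units, horizontal axis), for the 27 genes with 95% intervals on 18 arrays. Both sets of differences use the same arrays without vitamin D, and with calcidiol the intervals of Nsdhl, Insig1, Ebp and Dhcr7 lie off 0.

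For calcitriol, averaged over glucose states, 0 of 9852 genes passed by limma (0%), and 60 (0.609%) had an unadjusted p under 0.05, none of them among the 27. Mvd differed by -0.15 (SE 0.08, 95% interval -0.32 to 0.01), Nsdhl by -0.10 (SE 0.05) and Ggps1 by -0.09 (SE 0.05). Insig1 differed by -0.12 (SE 0.07), Ebp by -0.10 (SE 0.07) and Stard4 by -0.11 (SE 0.08). Pmvk differed by 0.16 (SE 0.09), with the array labelled calcitriol 3 included, and by 0.08 on the 12 arrays. Acss2 and Elovl6 differed by 0.06 (SE 0.05) and -0.07 (SE 0.10). Every adjusted p among the 27 was 1.0 by limma. Below 0 lay 21 of 27 (77.8%), against 60.4% of all, with a median of -0.034 against -0.011. The calcitriol and calcidiol differences share the 6 arrays without vitamin D, so their similar direction is not independent.

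Calcitriol and calcidiol, which differ by a hydroxyl group, were then compared with each other at the same 10 nM and 72 h. This was the only pair of compounds, tested over all 9852 genes. No gene passed by limma (0%), 291 (2.95%) had an unadjusted p under 0.05, and 0 of these were among the 27. Pmvk was higher with calcitriol by 0.17 (95% interval -0.02 to 0.37), Dhcr7 by 0.12 (-0.01 to 0.24), Acss2 by 0.11 (-0.01 to 0.22) and Nsdhl by 0.09 (-0.01 to 0.20). Insig1 differed by 0.07 (-0.08 to 0.22), Fdps by 0.07 (-0.07 to 0.20), Fads2 by 0.07 (-0.04 to 0.17) and Srebf2 by 0.04 (-0.06 to 0.15), and each adjusted p was 0.997. The interval bounds over the 27 genes ran from -0.34, for Elovl6, to 0.37, for Tm7sf2 and Pmvk. These are the outermost bounds over the genes. For each gene, a difference within its own interval was not excluded, and the test does not show that the forms act alike.

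The wider list of sterol and lipid genes, which was not chosen by how its members moved here but with results of these data known, held 71 genes, of which 61 were in the table and 54 were tested. In the averaged glucose comparison 1 of 54 was called (1.85%, below the 3.37% of all genes) and rose, Slc25a1, the mitochondrial citrate carrier that supplies cytosolic acetyl-CoA. It was 9.07, 9.10 and 9.04 in control and 9.34, 9.32 and 8.97 in glucose. The array labelled glucose 3 was below all 3 control arrays. In calcitriol it was 8.99, 9.04 and 9.17 and in calcitriol with glucose 9.41, 9.34 and 9.23. In calcidiol it was 9.03, 8.87 and 9.05 and in calcidiol with glucose 9.30, 9.23 and 9.08. Groups did not overlap after either vitamin D form. The difference was 0.21 (SE 0.05, adjusted p = 0.0483 by limma) on 18 arrays and 0.31 (SE 0.04, adjusted p = 0.00169 by limma) on the 12. With 1 array left out at a time Slc25a1 passed in 5 of 18 fits, each without an array numbered 3, and its adjusted p by limma reached 0.115. Next by p were Prkaa1, a catalytic subunit of AMP-activated kinase, at -0.13 (SE 0.04, adjusted p = 0.0527 by limma), and Acsl1, an acyl-CoA synthetase, at 0.17 (SE 0.05, adjusted p = 0.0608 by limma). On the 12 arrays 7 of the 54 passed (13%), against 9.94% of all genes. Among the higher ones were Slc25a1, the fatty acid carrier Fabp3 (0.46), the pseudokinase gene Trib1 (0.42), the phosphatidate phosphatase Lpin1 (0.28) and Acsl1 (0.26), and the lower one was Prkaa1 (-0.18). Msmo1 and Sc5d, the sterol oxidase and desaturase of the cholesterol route, differed after glucose by 0.02 (SE 0.07) and -0.08 (SE 0.03), and neither passed.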

How the data were processed

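Gene expression was measured in 18 samples of INS1E cells, 1 Affymetrix array each. The values are log2 signals as deposited by the authors. RMA and Partek are named, per the submitters' processing notes, with neither role nor order; parameters are not stated there. The attached table held 17017 probe sets with the same values as the series matrix, and array medians lay between 7.52 and 7.63.

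Genes in the lowest 25% of mean signal (under 6.38) were left out. One limma model of the 6 groups (limma 3.58.1, R 4.3.3, lmFit and eBayes, 12 residual degrees of freedom) gave all 9 comparisons, with Benjamini-Hochberg adjustment over 9852 genes and a threshold of 0.05. Tables, motif searches and plots were made in Python 3.11.15 (matplotlib 3.10.9, numpy 2.4.6, pandas 2.3.3). Scripts were tested on simulated data. Genes given in full were those that passed on 18 or on 12 arrays, the 2 of smallest p per role in each averaged comparison, and Hmgcs1, Insig1 and Scd1. The members, lists, rule and alternatives were chosen with earlier results of these data known.

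Array numbers 1 to 3 come from the labels. Deviations of same-numbered arrays from their group means correlated above 0.1 in all 9 pairs behind the glucose comparisons (0.179 to 0.714), in all 6 for calcitriol and in 5 of 6 for calcidiol. This pairing comes from the values and not from the labels. The block was an alternative, as were other filters, quantile normalisation, median centring, averaging of probe sets per gene, an intensity trend with robust estimation, array weights, the compared groups alone, and leaving out arrays.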

Additional observations from a re-analysis of the deposited data

How the results depend on the processing

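In the glucose comparison averaged over pretreatments, the main model called 1 of the 27 genes. A stricter filter, which leaves Pmvk untested, called 0. The replicate block called 2 (7.41%, against 9.55% of all genes). Array weights, whose fit did not converge, called 3 (against 11.9% of all genes). The 12 arrays numbered 1 and 2 with the block called 3 (Pmvk, Mvd and Elovl6, against 15.9% of all genes). Leaving out all arrays of 1 number, or any single array, gave 0 to 2. Without the arrays numbered 1, and likewise without those numbered 2, 0 of all genes passed, against 979 without those numbered 3. Single arrays left out gave 30 to 806 genes. Over all genes the main 332 became 201 with the stricter filter, 941 with the block, 1171 with array weights and 1564 with the block on 12 arrays. In the glucose comparison without vitamin D, where the main model called 0 genes of the set, array weights called 4 of 27 (14.8%, against 10.7% of all genes) and the block on 12 arrays 1 (3.70%, against 1.78%). The block on 12 arrays also called 1 after calcitriol (against 4.54% of all genes) and 1 after calcidiol (against 2.45%), where leaving out arrays gave 0 to 1. The replicate block changed no other call among the 27. Of 278 counts of called members compared with the main value, 252 were within 1.5 times of it. A count of 0 against a main value of 0 was scored as within, and only the averaged glucose comparison had a main call. The 252 therefore say little about that call: Pmvk passed in 5 of 18 fits with 1 array left out. Differences of single named genes gave 5524 values under other settings. Of these, 5467 kept the side of the threshold and, where uncalled, moved by less than the within-group SD. A further 15 no longer passed, 15 newly passed, 27 uncalled ones moved by more than that SD and 0 called values changed sign. The sign of uncalled differences was not held fixed: Insig1 after glucose was 0.02 in the main model and -0.01 with probe sets averaged. The cause of these shifts was not tested. The compared groups alone gave no separate value for the averaged glucose comparison, which uses all groups. The number of arrays limits all results, and genes near the filter on low signals, such as Pmvk, have the least signal over background.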

Other observations

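On the 12 arrays numbered 1 and 2, which favour glucose tests, Pmvk rose by 0.48 on the log2 scale after glucose. Mvd, the step that follows it, fell by 0.29, and both were past the threshold. These 2 of 27 genes (7.41%) were below the share of all genes called there (9.94%). Pmvk lies near the filter on low signals and passed in 5 of 18 fits with 1 array left out. On all 18 arrays Mvd did not pass, and no other tested gene of the mevalonate steps passed on either set. Hmgcs1, at the entry of the route, differed there by -0.13 with an interval that spans 0. Slc25a1, which carries citrate out of mitochondria, rose by 0.31 and Acly, the next enzyme on that citrate, differed by 0.00 (95% interval -0.09 to 0.09).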
